A study of Mus musculus with 30 samples.

Results

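Pou5f1, Sox2 and Nanog are the 3 transcription factor genes at the centre of the pluripotency network, and they were followed as 3 of the 35275 entries of the bulk RNA-seq table, by their symbols, across all 14 bulk libraries. Pou5f1 encodes Oct4, a POU-domain protein that binds the octamer sequence. Sox2 encodes an HMG-box protein that binds beside Oct4 on composite sites, and Nanog encodes a homeodomain protein of naive pluripotent cells. The 3 proteins bind many enhancers together, including those of their own genes, and somatic cells hold these genes silent. Oct4 and Sox2 belong to the classical set of reprogramming factors, whereas in chemical reprogramming the genes have to be switched on from the chromosome by small molecules. Sox2 is also a gene of neural progenitors, and Pou5f1 is kept on in germ cells.

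The series holds 30 samples, of which 14 were bulk RNA-seq libraries of mouse cells, 12 were single-cell and 4 were bisulfite libraries. Neither the single-cell nor the bisulfite kind was analysed here. Each bulk group is 1 library, so no value below has a replicate error and no p-value is given. Along the process the libraries were embryonic fibroblasts (MEF, from E13.5 embryos), an XEN-like line (cells resembling extraembryonic endoderm stem cells, kept with 20 ng/ml bFGF), stage II day 12 cells in N2B27 medium, stage III cells at days 6, 15 and 21, and the chemically induced pluripotent line CiPSC #1. The strain label of these is C57BL/6J-Tg(GOFGFP)11Imeg/RbrcxICR, a cross that brings the GOFGFP transgene, a green fluorescent reporter under Pou5f1 regulatory sequence. The side arms of that strain were OG+PDGFRAlow/-PECAM- cells sorted at stage II day 12, cells of that day in FBS/KSR medium, and stage III day 4 cells with Opt. VPA (VPA is valproic acid, an inhibitor of histone deacetylases) or as their control. Sorted Zscan4c-Em positive and negative cells at stage II day 12 came from XEN-like cells made from reporter ESCs of a 129S6/SvEvTac by C57BL/6Ncr cross. The embryonic stem cell line (ESC), from E3.5 embryos, was ICR by ICR, and like CiPSC it was grown on MEF feeder cells in 2iL medium. Cells were replated at day 12, and the media of stages II and III followed from days 16 and 28. N2B27 stage II cells were replated on mitomycin-treated MEF feeders, and no source used here says in which stage II medium the stage III cells had been.

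Depth, recovered from the deposited values, was between 6601290 assigned reads (day 4 control) and 15294927 (FBS/KSR). Mitochondrially encoded genes took 7.37% of the reads in Em+ and 14.1% in Em-, and 1.25% to 4.67% in the other 12 libraries. Checked against markers, summed fibroblast markers were at 19306 FPKM in MEF, 4.0 in CiPSC and 6.1 in ESC, and summed extraembryonic endoderm markers were at 7187 FPKM in XEN-like cells and 609 in MEF. Levels are FPKM, reads scaled to gene length and library size, as the authors deposited them. Intervals in parentheses are 95% counting intervals, exact and from the recovered reads. Intervals and floors cover counting error only. In bulk RNA, fewer cells of a type and less RNA per cell cannot be told apart.

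The promoter windows of the 3 genes are shown because the genes are switched on from these chromosomal copies and are themselves bound by Oct4 and Sox2. All are RefSeq windows of 300 bases on GRCm38.p6, from 250 bases before to 50 after the first annotated start, on the + strand. Pou5f1 lies at chr17:35506032-35510777 with its window at chr17:35505782-35506081, Sox2 at chr3:34649995-34652461 with its window at chr3:34649745-34650044, and Nanog at chr6:122707489-122714633 with its window at chr6:122707239-122707538. Capitals mark matches on either strand to the octamer core TTTGCAT, the Sox core ACAATG, the nuclear receptor half-site AGGTCA and the GC box GGGCGG.
Pou5f1: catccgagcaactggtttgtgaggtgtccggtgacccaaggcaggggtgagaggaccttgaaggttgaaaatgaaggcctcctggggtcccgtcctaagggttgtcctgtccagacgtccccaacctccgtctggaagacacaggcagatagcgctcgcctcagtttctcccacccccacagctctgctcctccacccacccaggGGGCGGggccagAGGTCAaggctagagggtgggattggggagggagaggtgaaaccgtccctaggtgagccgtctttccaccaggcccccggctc
Sox2: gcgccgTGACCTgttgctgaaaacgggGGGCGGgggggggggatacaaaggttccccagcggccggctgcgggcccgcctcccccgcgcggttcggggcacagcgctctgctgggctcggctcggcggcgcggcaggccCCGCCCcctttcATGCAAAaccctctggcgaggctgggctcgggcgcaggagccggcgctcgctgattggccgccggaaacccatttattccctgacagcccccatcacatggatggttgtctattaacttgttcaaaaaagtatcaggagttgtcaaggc
Nanog: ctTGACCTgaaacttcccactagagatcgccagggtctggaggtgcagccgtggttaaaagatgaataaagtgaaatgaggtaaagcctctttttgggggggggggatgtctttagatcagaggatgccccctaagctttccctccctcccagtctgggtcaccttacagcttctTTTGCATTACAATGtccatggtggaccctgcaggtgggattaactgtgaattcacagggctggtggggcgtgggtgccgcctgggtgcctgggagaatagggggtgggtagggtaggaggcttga

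In the Nanog window an octamer core and a Sox core, separated by 1 base, form the run TTTGCATTACAATG from 75 to 62 bases before the start (chr6:122707414-122707427). That composite overlaps both single cores. It was searched as both cores in this order with any 1 base between them, on both strands. It was found in 2 of 32544 distinct promoter windows (0.00615%), and both are overlapping Nanog windows. The pattern is the Nanog run with 1 base left free, so its match in Nanog was given beforehand. The share is therefore no result about Nanog. The Sox2 window holds an octamer core on the reverse strand, 99 to 93 bases before the start, and no ACAATG. Other forms of the Sox core were not searched, here or in the Pou5f1 window. The Pou5f1 window holds neither core, while a second RefSeq window of Pou5f1 (chr17:35508557-35508856) holds a Sox core 158 to 153 bases before its start. The window shown has a GC box 45 to 40 bases before the start and, a few bases on, a nuclear receptor half-site 33 to 28 bases before it. The single motifs are common, at 4.65% of windows for the octamer core, 12.4% for the Sox core, 16.2% for the half-site and 35.9% for the GC box. The windows also differ in composition. Sox2 has 66.3% GC and 27 CpG, Pou5f1 62.7% GC and 11 CpG, and Nanog 54.3% GC and 4 CpG. More CpG stand in the Sox2 window than in 84.4% of all windows, and more in the Nanog window than in 31.0%. A match is a run of letters, not a bound site, and enhancers outside these windows were not searched.

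Pou5f1 was by far the highest of the 3 at stage II. It had 0 reads in MEF and 0 in XEN-like cells, which with a floor of 3 reads says only that it was not detectable at this depth. At stage II day 12 it was at 235 FPKM in the OG+ sorted library, 149 FPKM in N2B27 and 249.9 FPKM in FBS/KSR, from 832 to 2828 reads. So all 3 of these stage II libraries held it. Stage III gave 119.7 FPKM at day 4 with Opt. VPA, 86.2 FPKM in the day 4 control, 138 FPKM at day 6, 216 FPKM at day 15 and 400.1 FPKM at day 21. CiPSC had 756 FPKM and ESC 616 FPKM, and the reporter pair 134 FPKM in Em+ and 70.4 FPKM in Em-. Thus 12 libraries held Pou5f1 at 10 FPKM or more, and the 2 without it were the starting fibroblasts and the XEN-like line.

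In order of level, CiPSC, ESC and stage III day 21 stood apart from each other and from the rest beyond counting error. Below them FBS/KSR, OG+ sorted and day 15 formed a run in which neighbours overlapped, and then N2B27, day 6, Em+ and day 4 Opt. VPA another. The day 4 control and Em- followed, each apart from its neighbours. Relative to ESC, Pou5f1 was at 24.2% in N2B27, 22.4% at day 6, 35.1% at day 15, 64.9% at day 21 and 123% in CiPSC. Its level in the OG+ sorted library is tied to the sort, since OG, not spelled out in the labels, would be read as the GOFGFP reporter, and it is given as a description only.

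Sox2 had a low level in every library up to stage III day 6. It was at 0.597 FPKM from 12 reads in MEF, and at 4.59 FPKM from 80 reads in the XEN-like line. At stage II it was at 6.75 FPKM in OG+ sorted cells, 9.16 FPKM in N2B27 and 10.4 FPKM in FBS/KSR. Unlike Pou5f1, Sox2 was already detected in the XEN-like line, and the N2B27 and FBS/KSR levels lay above it beyond counting error. Stage III gave 4.39 FPKM at day 4 with Opt. VPA, 8.69 FPKM in the day 4 control, 8.41 FPKM at day 6, 119 FPKM at day 15 and 181 FPKM at day 21. CiPSC had 211 FPKM and ESC 232 FPKM, and the reporter pair 12.0 FPKM in Em+ and 10.1 FPKM in Em-. The libraries therefore fell into an upper set of 4 (ESC, CiPSC, day 21, day 15), each apart from the next beyond counting error, and a lower set. From Em+ at 12.0 FPKM down to day 4 Opt. VPA at 4.39 FPKM, 9 libraries formed a run in which each overlapped its neighbour, with MEF apart below them. In percent of ESC, Sox2 was at 3.94% in N2B27, 3.62% at day 6, 51.1% at day 15, 78.1% at day 21 and 91.1% in CiPSC.

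Sox2 lies inside the long non-coding gene Sox2ot (chr3:34560381-34677993). No source used here says whether the counting used strand, so reads of a host gene and Sox2 could be mixed. The Sox2ot entry had at most 16 reads, 1.58 FPKM, in any library and 0 reads in 6. Markers of neural progenitors, in which Sox2 is also expressed, summed to 4.3 to 30.0 FPKM across the 14 libraries over 6 genes. The highest sum was in XEN-like cells, from Pax6 at 9.89 FPKM and Nes at 20.1 FPKM with the other 4 markers, Sox1 among them, at 0. At day 15 the sum was 4.45 FPKM and in ESC 6.58 FPKM.

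Nanog was near 0 in several libraries where Pou5f1 was high. It had 0.197 FPKM from 4 reads in MEF, 0.626 FPKM from 11 reads in the XEN-like line and 0.576 FPKM in N2B27 from 9 reads. Against these, the OG+ sorted library had 9.88 FPKM from 193 reads and FBS/KSR 6.03 FPKM from 191 reads. The 3 stage II libraries of that strain thus differed more in Nanog than in either other gene. Stage III gave 0.115 FPKM at day 4 with Opt. VPA, 0.439 FPKM in the day 4 control, 8.96 FPKM at day 6, 143 FPKM at day 15 and 265 FPKM at day 21. CiPSC had 364 FPKM and ESC 518 FPKM, while Em+ had 0.265 FPKM and Em- 0.279 FPKM from 4 and 5 reads. Both reporter libraries, the N2B27 library and both day 4 libraries were thus no higher than XEN-like cells beyond counting error. In order of level, ESC, CiPSC, day 21 and day 15 stood apart from each other. OG+ sorted and day 6 overlapped, FBS/KSR followed apart, and the 7 libraries from XEN-like cells down to day 4 Opt. VPA overlapped neighbour by neighbour. Relative to ESC, Nanog was at 0.111% in N2B27, 1.73% at day 6, 27.6% at day 15, 51.2% at day 21 and 70.3% in CiPSC. The pseudogenes Nanog-ps1 and Nanog-ps2, related sequences that can share reads with Nanog, were listed at 0 in all 14 libraries.

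**Figure D1:**
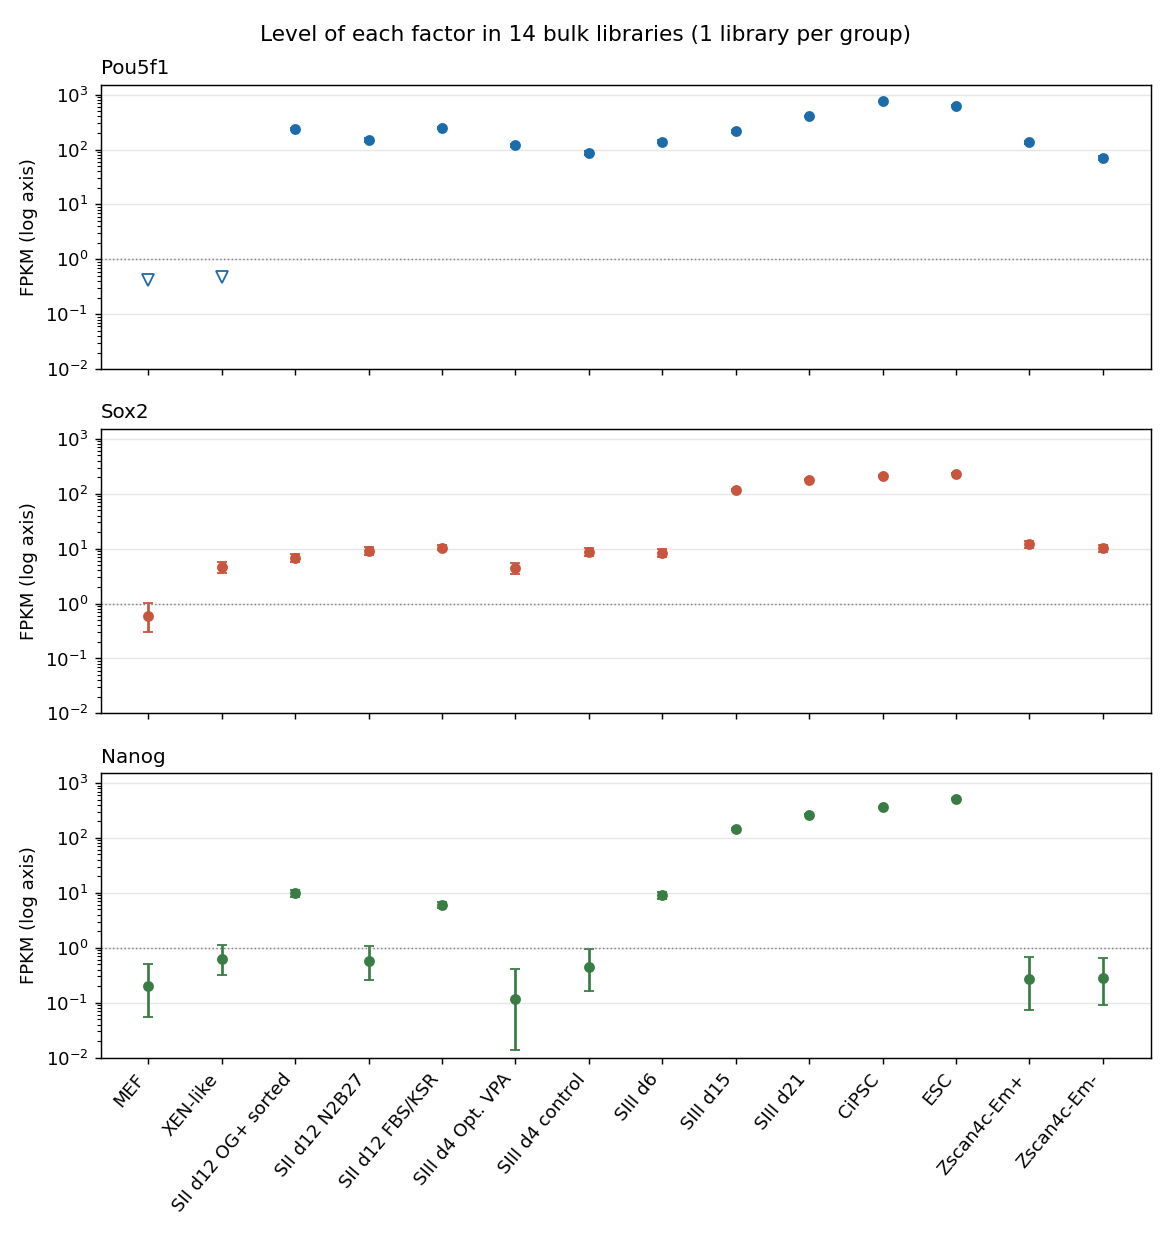
Level of each factor in every bulk library, in FPKM on a log axis, with 95% counting intervals. Pou5f1 was at 70.4 FPKM or more in all libraries except MEF and XEN-like, whereas Sox2 and Nanog passed 100 FPKM in stage III day 15, day 21, CiPSC and ESC.

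The 3 genes approached their ESC levels along different courses. Pou5f1 was at 24.2% of its ESC level in N2B27 stage II cells while Sox2 was at 3.94% and Nanog at 0.111%. By day 15 the order was Sox2 at 51.1%, Pou5f1 at 35.1% and Nanog at 27.6%, so Sox2 had passed Pou5f1 on this scale. As a yardstick, 324 entries were at 10 FPKM or more in ESC and under 1 FPKM in MEF, all 3 factors among them, which fixes both ends of their course. Their median was 26.5% of ESC in N2B27, 21.9% at day 6, 44.3% at day 15, 63.8% at day 21 and 76.6% in CiPSC. Pou5f1 lay near the middle of these entries in N2B27, with 47.8% of them lower, whereas 19.8% were lower than Sox2 and 5.25% lower than Nanog. At day 15, 39.5% were lower than Pou5f1, 56.5% lower than Sox2 and 30.9% lower than Nanog.

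**Figure D2:**
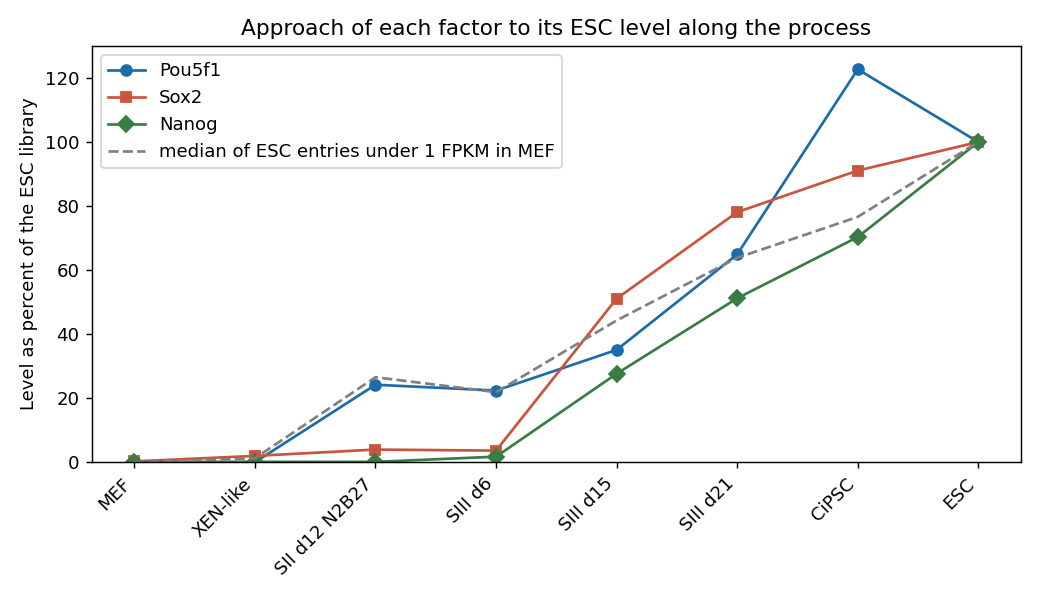
Level of each factor as a percentage of its ESC level along the process, on a linear axis, with the dashed grey line for the median of 324 entries at 10 FPKM or more in ESC and under 1 FPKM in MEF. At stage III day 6 Pou5f1 stood at 22.4%, beside the median of 21.9%, with Sox2 at 3.62% and Nanog at 1.73%.

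Within a library, the balance of the 3 transcripts changed in the same interval. In every stage II, day 4, day 6 and reporter library, Pou5f1 made up 87.1% to 96.4% of the summed FPKM of the 3 genes. It made up 45.2% at day 15, 47.3% at day 21, 56.8% in CiPSC and 45.1% in ESC. Nanog had 30.0%, 31.3%, 27.3% and 37.9% in those 4 libraries, in the same order, and Sox2 24.8%, 21.4%, 15.9% and 17.0%. The Pou5f1 share at day 15 was thus already near that of ESC, though the levels were lower. The Nanog to Sox2 ratio at day 15 stayed below that of both pluripotent lines. Pou5f1 exceeded Nanog 259-fold (136 to 568) in N2B27, 41.5-fold in FBS/KSR, 15.4-fold at day 6, 1.51-fold at day 15, 2.08-fold in CiPSC and 1.19-fold in ESC, by FPKM. The Nanog to Sox2 ratio was 0.0629 in N2B27, 0.580 in FBS/KSR, 1.46 in OG+ sorted cells, 1.06 at day 6, 1.21 at day 15, 1.72 in CiPSC and 2.23 in ESC. These ratios between genes rest on the gene lengths behind the FPKM values, which were 740 bases for Pou5f1, 2057 for Sox2 and 2072 for Nanog. The length for Pou5f1 is short for its main transcript, and a longer one would lower every share and ratio of Pou5f1 given here. In reads, without a length, Nanog had more than Pou5f1 in all 4 of the upper libraries, with 2110 against 1138 at day 15, 4490 against 2419 at day 21, 8675 against 6434 in CiPSC and 9915 against 4214 in ESC. There the order by FPKM is turned.

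**Figure D3:**
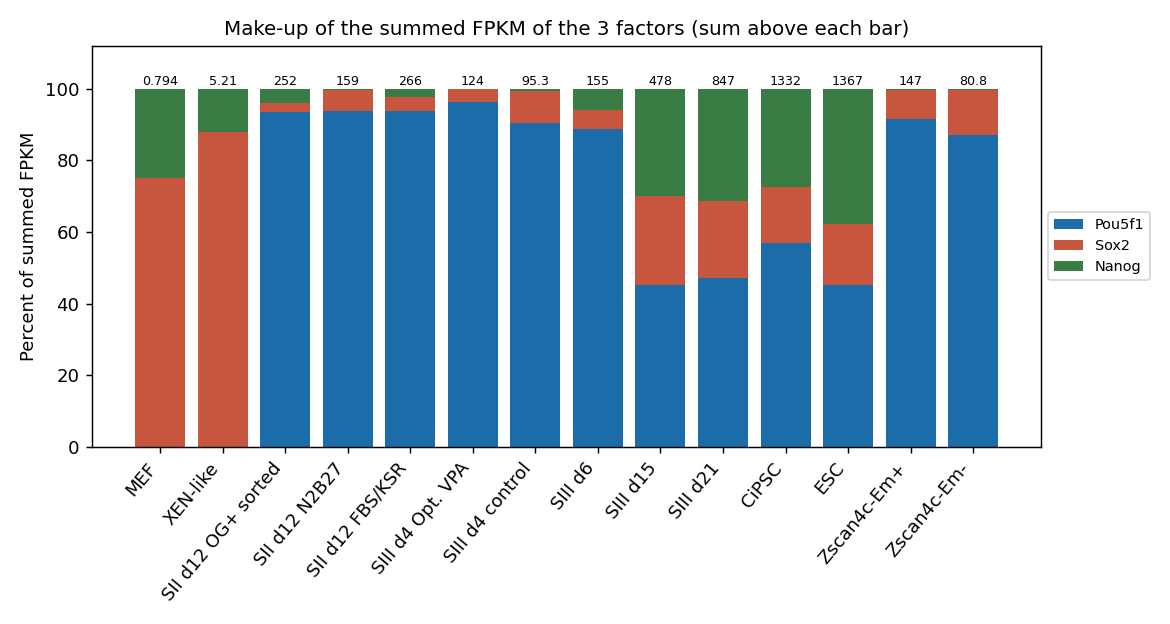
Share of each factor in the summed FPKM of Pou5f1, Sox2 and Nanog, in percent, for the 14 libraries, with the sum above each bar. The shares rest on a gene length of 740 bases for Pou5f1. Pou5f1 had no share in MEF and XEN-like cells, at least 87.1% at stage II, at stage III days 4 and 6 and in the reporter pair, and 45.1% to 56.8% in day 15, day 21, CiPSC and ESC.

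The comparisons that follow set 1 library over another and share libraries with each other, so they are not independent. A call, higher or lower, needed 2-fold on the log2(FPKM+1) scale, among entries at 1 FPKM or more in either library. Of the 42 comparisons of a factor (14 library pairs for each), 12 were called higher, 1 lower, 24 lay under 2-fold and 5 were under 1 FPKM in both libraries. The share of all entries called in that direction is given as the background.

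XEN-like cells against MEF asked what the first step brought, and Sox2 was the factor called, at a low level. Sox2 was 7.69-fold (4.17 to 15.5) higher, from 80 against 12 reads, where 18.8% of all entries were called higher and 17.5% lower. Nanog, at 0.626 and 0.197 FPKM, and Pou5f1, at 0 reads in both, were under the limit for a call. With a minimum of 5 FPKM in place of 1, Sox2 was under that limit too and the call was lost. In the XEN-like line Sox2 was only 0.623% of the summed FPKM of 20 Sox genes, and Sox17, the endoderm factor that can take the place of Sox2 beside Oct4, was at 405 FPKM. Of 10 tested partner factors 6 were higher and 1 lower (median 1.53, against 0.21 over all entries), among them Sall4, a zinc-finger partner of Oct4, at 86.7 FPKM in XEN-like cells and 0 in MEF.

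Stage II against XEN-like cells asked what the second stage brought, and there Pou5f1 was the gene that appeared. In N2B27 it was at least 312-fold higher, set against a floor of 3 reads in the XEN-like library (the lower limit of the counting interval was 253), where 17.7% of entries were called higher and 8.56% lower. Sox2 was 2.00-fold (1.51 to 2.66) higher, 0.86 on the log2(FPKM+1) scale and short of a call, and Nanog 0.920-fold (0.337 to 2.44). In FBS/KSR all 3 were called higher, where 16.1% of entries were called higher and 10.3% lower: Pou5f1 at least 522-fold (lower limit 425), Sox2 2.27-fold (1.77 to 2.93) and Nanog 9.62-fold (5.26 to 19.6). Among the other genes of the network, 6 of 12 tested partner factors were higher and 0 lower in N2B27 (median log2 fold 0.99, against 0.05 over all entries). Of 5 tested genes with a known Oct-Sox element 4 were higher (median 3.36), as were 8 of 13 other common targets, with 2 lower (median 1.52). Utf1, a chromatin gene with an Oct-Sox enhancer, was at 17.1 FPKM in N2B27 and 0.481 FPKM in XEN-like cells. Fgf4, the growth factor gene whose enhancer is the textbook Oct-Sox site, was at 0.0438 FPKM in N2B27 and 0 in XEN-like cells.

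The 2 stage II media differed for Nanog. N2B27 had 9 reads and FBS/KSR 191, so Nanog was 0.0956-fold (0.0431 to 0.185), lower in N2B27, where 7.3% of all entries were called lower and 10.7% higher. Pou5f1 was 0.597-fold (0.552 to 0.645) and Sox2 0.881-fold (0.718 to 1.08), both short of a call. Of the partner factors 1 was higher and 3 lower of 12 (median 0.09), of the Oct-Sox element genes 1 higher and 2 lower of 6 (median -0.54), and of the other common targets 2 higher and 1 lower of 14 (median 0.18), against a median of 0.07 over all entries. Fibroblast markers summed to 73.2 FPKM in N2B27 and 245 FPKM in FBS/KSR, with 2 higher and 5 lower of 10 in N2B27. Endoderm markers summed to 2252 and 7734 FPKM, with 0 higher and 4 lower of 10. All 10 endoderm markers were at 1 FPKM or more in both. Trophoblast markers summed to 100.1 FPKM in N2B27 and 241 FPKM in FBS/KSR, with 6 of 8 lower in N2B27. Their part in the Nanog difference was not tested. The N2B27 cells were also replated on feeders and at another density, so medium, feeders and density cannot be told apart.

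Sorted OG+ cells against unsorted N2B27 cells differed for Nanog in the same library pair in which Pou5f1 is tied to the sort. Nanog was 17.1-fold (8.84 to 38.1) higher, from 193 against 9 reads, where 12% of entries were called higher and 12% lower. Sox2 was 0.737-fold (0.577 to 0.942), short of a call, and Pou5f1 1.58-fold (1.45 to 1.72). The partner factors were split, with 4 higher and 3 lower of 14 (median -0.03, against -0.06 over all entries), as were the Oct-Sox element genes, with 2 higher and 2 lower of 5 (median 0.94). Klf2, a Kruppel-like factor of naive cells, was at 248 FPKM in OG+ cells and 3.73 FPKM in N2B27, and Nr5a2, a nuclear receptor that can activate Pou5f1, at 12.7 and 0.760 FPKM. Esrrb, an orphan nuclear receptor that binds with Nanog, was at 30.1 FPKM in OG+ cells and 96.9 FPKM in N2B27. Trophoblast markers summed to 948 FPKM in OG+ cells and 100.1 FPKM in N2B27, with all 8 markers at 1 FPKM or more in both, and Cdx2, the trophectoderm factor that represses Pou5f1, was at 187 and 43.2 FPKM. Their part in the Nanog difference was not tested. The medium of the sorted cells is not stated, so medium and sort cannot be told apart.

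Stage III day 6 against stage II gave an answer that depended on the medium of the stage II library. Over N2B27, Nanog was 15.6-fold (8.01 to 34.6) higher, where 9.99% of entries were called higher and 8.98% lower, with Pou5f1 0.925-fold (0.842 to 1.02) and Sox2 0.919-fold (0.730 to 1.16). Over FBS/KSR none of the 3 was called, with Nanog 1.49-fold (1.20 to 1.83), Pou5f1 0.552-fold (0.513 to 0.594) and Sox2 0.810-fold (0.667 to 0.979), where 6.05% of entries were called higher and 2.01% lower. Of 13 tested partner factors 1 was higher and 4 lower over N2B27 (median -0.72) and 1 higher and 5 lower over FBS/KSR (median -0.80). Of 6 Oct-Sox element genes 2 were higher and 1 lower over N2B27 (median 0.44), and 0 higher and 0 lower over FBS/KSR (median -0.14). The medians over all entries were -0.04 and 0.01. The 2 day 4 libraries of stage III had Nanog at 0.115 and 0.439 FPKM, below the 8.96 FPKM of day 6. Summed fibroblast markers were at 692 FPKM at day 6, against 73.2 FPKM in N2B27 and 245 FPKM in FBS/KSR. Summed trophoblast markers were at 589.6 FPKM at day 6, against 100.1 FPKM in N2B27 and 241 FPKM in FBS/KSR, with 7 of 8 higher over N2B27 and 5 of 8 over FBS/KSR. The part of these markers was not tested.

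Day 15 against day 6 of stage III held large differences for Sox2 and Nanog. For Nanog, day 6 over N2B27 had given a fold of like size, 15.6-fold (8.01 to 34.6) from 177 against 9 reads. Sox2 was 14.1-fold (12.0 to 16.6) higher and Nanog 16.0-fold (13.7 to 18.7), and Pou5f1 1.57-fold (1.44 to 1.71), short of a call, where 6.23% of all entries were called higher and 5.02% lower. Among 14247 entries tested, 16 had a larger log2 fold than Sox2 and 11 a larger one than Nanog. Other genes of the network were higher too: 10 of 15 partner factors were higher and 0 lower (median 1.41, against 0.04 over all entries), as were 4 of 6 Oct-Sox element genes (median 1.29) and 9 of 14 other common targets (median 1.37). Fgf4 was at 40.0 FPKM at day 15 and 1.52 FPKM at day 6. Prdm14, a repressor of differentiation signals in naive cells, was at 8.17 and 0.941 FPKM, and Lefty2, an inhibitor of Nodal, at 20.5 and 0.145 FPKM. Of 9 tested repressors and lineage antagonists 0 were higher and 2 lower (median -0.08). Gata4, an endoderm factor, was at 126 FPKM at day 15 and 161 FPKM at day 6. Endoderm markers summed to 4222 FPKM at day 15 and 4462 FPKM at day 6, fibroblast markers to 903 and 692 FPKM and trophoblast markers to 261 and 589.6 FPKM. Markers of primordial germ cells, which also express the core factors, summed to 104 FPKM at day 15 and 109 FPKM at day 6 over 6 genes. Within these near-equal sums, Dazl was at 49.1 and 13.9 FPKM and Tfap2c, also a trophoblast marker, at 42.1 and 83.4 FPKM. Of 5 tested, 1 was called higher and 0 lower. The part of these markers in the Sox2 and Nanog differences was not tested.

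Within the Sox family, Sox2 took the first place in the same interval. It was the highest of 20 Sox genes at day 15, day 21, in CiPSC and in ESC, and ranked 4 at day 6 and 5 in N2B27. Its share of the family's summed FPKM was 3.83% in N2B27, 4.99% at day 6, 47.0% at day 15, 70.4% at day 21, 66.0% in CiPSC and 72.4% in ESC. Sox17 stood at 135 FPKM in N2B27, 116 FPKM at day 6, 91.4 FPKM at day 15 and 28.6 FPKM at day 21. In the pluripotent lines the next Sox gene was Sox15, at 49.4 FPKM in CiPSC and 40.2 FPKM in ESC. Pou5f1 had no such rival, with 87.2% to 98.4% of the summed FPKM of 15 POU genes in each of the 12 libraries that held it.

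Later steps were under 2-fold for all 3 genes, each to the same side. Day 21 over day 15 gave 1.85-fold (1.72 to 1.99) for Pou5f1, 1.53-fold (1.44 to 1.62) for Sox2 and 1.85-fold (1.76 to 1.95) for Nanog, where 1.72% of entries were called higher and 7.5% lower. CiPSC over day 21 gave 1.89-fold (1.80 to 1.98), 1.17-fold (1.11 to 1.22) and 1.37-fold (1.32 to 1.42) for the genes in that order, where 4.88% of entries were called higher and 15.4% lower. Each of these counting intervals lay above 1. Pou5f1 came closest to a call, at 0.92 on the log2(FPKM+1) scale in CiPSC over day 21, and was called there at 1.12 under median-of-ratios scaling. Endoderm markers summed to 133 FPKM in CiPSC, 2034 FPKM at day 21 and 4222 FPKM at day 15, and fibroblast markers to 4.0, 399 and 903 FPKM. Their part in these differences was not tested.

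CiPSC against ESC asked how close the induced line came to the embryo-derived one, and none of the 3 genes differed by 2-fold, where 1.79% of entries were called higher and 4.77% lower. Pou5f1 was 1.23-fold (1.18 to 1.28), Sox2 0.911-fold (0.874 to 0.949) and Nanog 0.703-fold (0.683 to 0.724). All 3 intervals exclude 1, yet with 1 line and 1 library on each side, of different strains, the difference between lines of the same kind is not known. The direction for Sox2 depended on the scaling, at -0.13 on the log2 scale as deposited and 0.02 with median-of-ratios scaling, while Pou5f1 stayed above 0 and Nanog below. Of 15 partner factors 0 were higher and 1 lower in CiPSC (median -0.32, against -0.09 over all entries). Over MEF, the CiPSC line had Pou5f1 at least 1824-fold higher (lower limit 1483), Sox2 354-fold (203 to 686) and Nanog 1844-fold (720.0 to 6770), where 25.8% of entries were called higher and 25.3% lower.

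**Figure D4:**
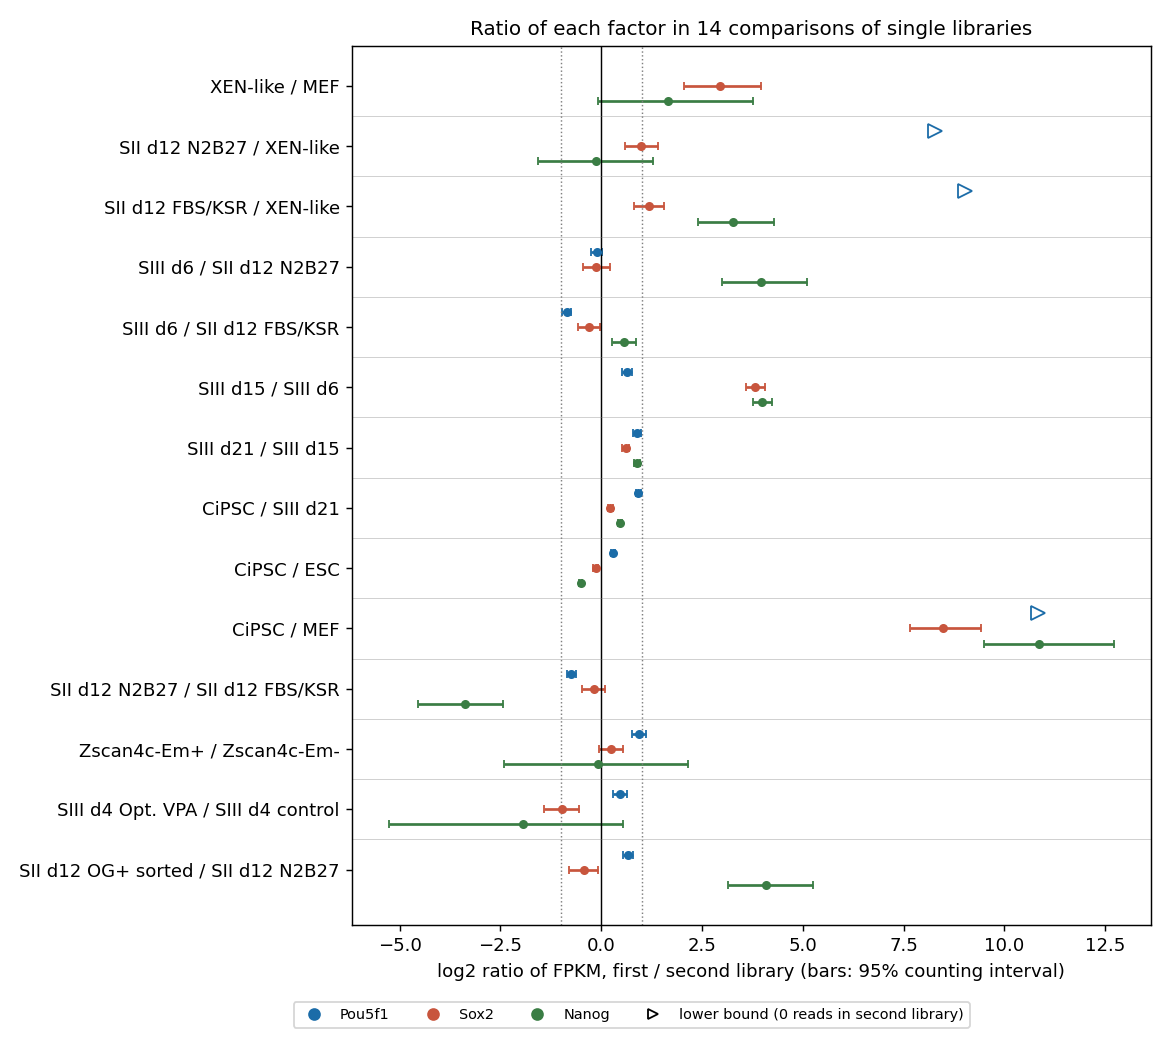
Log2 ratio of FPKM of each factor in the 14 library pairs, first library over second, with 95% counting intervals, and open triangles for lower bounds where the second library had 0 reads. Sox2 and Nanog lay far beyond the dotted 2-fold lines together at day 15 over day 6, at 14.1-fold and 16.0-fold, while Pou5f1 lay at 1.57-fold.

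Zscan4c-Em+ against Em- cells asked whether cells with the reporter of a 2-cell stage gene differed in the core factors. Pou5f1 was 1.91-fold (1.69 to 2.15) higher, 0.92 on the log2(FPKM+1) scale and short of a call, where 8.37% of entries were called higher and 5.15% lower. Sox2 was 1.18-fold (0.957 to 1.46), and Nanog, with 4 against 5 reads, was under the limit for a call. The higher mitochondrial share of Em- bears on this pair: with mitochondrial entries left out of the scaling, the log2 value for Pou5f1 was 0.72 and for Sox2 0.03. Of 12 tested partner factors 2 were higher and 0 lower (median 0.27, against -0.04 over all entries), with Klf2 at 93.4 FPKM in Em+ and 35.5 FPKM in Em-. Endoderm markers summed to 1034 FPKM in Em+ and 1469 FPKM in Em-, all 10 of them at 1 FPKM or more in both. Of these 10, 0 were called higher and 2 lower in Em+. Trophoblast markers summed to 38.4 and 109.8 FPKM, with 0 higher and 2 lower of 7 tested. The part of these markers was not tested.

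Stage III day 4 with Opt. VPA against its control asked how the library of that label differed. Pou5f1 and Sox2 lay to opposite sides, both short of a call. Pou5f1 was 1.39-fold (1.23 to 1.57) and Sox2 0.505-fold (0.374 to 0.680), from 76 against 118 reads, where 5.77% of entries were called higher and 3.28% lower. Nanog had 2 reads with Opt. VPA and 6 in the control. Partner factors had 0 higher and 1 lower of 10 (median 0.18, against 0.12 over all entries), Oct-Sox element genes 1 higher and 1 lower of 5 (median -0.18) and other common targets 2 higher and 0 lower of 12 (median 0.68). Utf1 was at 13.9 FPKM with Opt. VPA and 0.988 FPKM in the control. Endoderm markers summed to 6541 FPKM with Opt. VPA and 10362 FPKM in the control, but of 10 tested 0 were called higher and 0 lower. Trophoblast markers summed to 132 and 79.4 FPKM, with 3 higher and 0 lower of 8. Gata3, Eomes and Elf5 were lower with Opt. VPA, short of a call. The part of these markers was not tested.

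Over all 14 libraries, Sox2 and Nanog were most alike of the 3 pairs on a linear scale of log2(FPKM+1), with Pearson's r of 0.92, against 0.69 for Pou5f1 and Sox2 and 0.60 for Pou5f1 and Nanog. By rank the order differed, with Spearman's rho of 0.70, 0.76 and 0.82 for the same pairs. Without MEF and XEN-like, where Pou5f1 had 0 reads, Pearson's r was 0.93, 0.81 and 0.89 over the other 12 libraries. The 14 points share strains, depth and stages and fall into an upper and a lower set, so these are descriptions. For likeness, 10144 entries at 10 FPKM or more in any library were ranked, with some forms of symbol and shared names left out. The 5 most like Pou5f1 by Pearson's r were Dppa5a (0.986), Tex19.1 (0.955), Rasgrp4 (0.948), Gtsf1l (0.942) and Triml2 (0.938). For Nanog they were Aim2 (0.986), Fgf4 (0.980), Prdm14 (0.975), Zfp534 (0.973) and Pipox (0.972), and for Sox2 Tex14 (0.976), Morc1 (0.967), Dmc1 (0.962), EU599041 (0.962) and Psma8 (0.958). Dppa5a, which encodes an RNA-binding protein typical of pluripotent cells, had 1506 FPKM in N2B27 and, as Pou5f1 did, 0 in XEN-like cells and in MEF. The names were not stable: by Spearman's rho, 0 of 5 were kept for Pou5f1, 0 for Sox2 and 1 for Nanog. Nanog was entry 64 in likeness to Sox2 and Sox2 entry 63 in likeness to Nanog, whereas Sox2 was entry 362 and Nanog entry 746 in likeness to Pou5f1.

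Neighbouring genes on the chromosome give the local setting. Gdf3, a TGF-beta family ligand gene 97402 bases before Nanog, had r of 0.958 with it over the 14 libraries, and Dppa3, an oocyte and germ cell factor gene 77218 bases before it, 0.637. Dppa3 was at 18.8 FPKM in N2B27 and 14.9 FPKM at day 6, where Nanog was at 0.576 and 8.96 FPKM. On the other side, Slc2a3, a glucose transporter gene 13176 bases after Nanog, had r of 0.452 and was at 397 FPKM in XEN-like cells. Tcf19, 1953 bases after Pou5f1, had r of -0.44 with it and was at 13.6 FPKM in XEN-like cells and 25.5 FPKM in MEF, so the gene beside Pou5f1 was detected in the libraries where Pou5f1 was not. H2-Q10, 31469 bases before Pou5f1, had r of 0.604 but was at most at 2.25 FPKM in any library. Fxr1, as far as 580015 bases before Sox2, had r of 0.931 with Sox2 and was at 42.8 FPKM in MEF and 145 FPKM in ESC. The other neighbours of Sox2 were Dnajc19 (0.673), Atp11b (0.648) and Dcun1d1 (-0.296). Those of Pou5f1 were H2-Q7 (-0.00776) and Cchcr1 (-0.0546), and that of Nanog was Foxj2 (-0.185). High values are common over these libraries, since Nanog with r of 0.92 was only entry 64 in likeness to Sox2. A local effect was not tested.

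**Figure D5:**
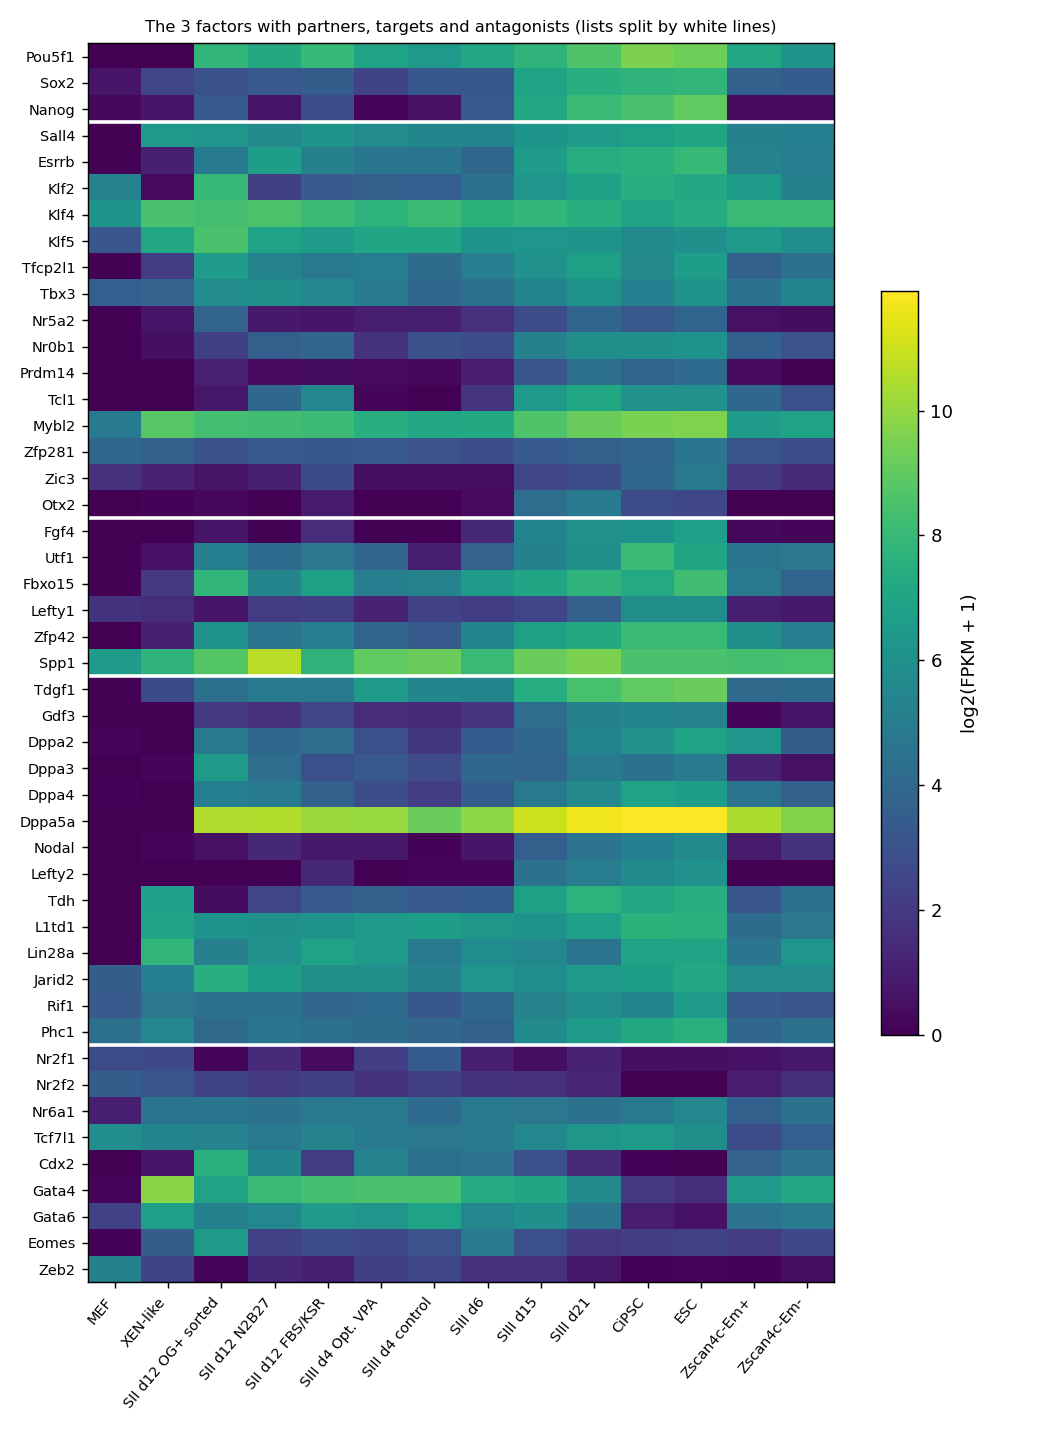
Levels of the 3 core factors (top rows), partner factors, Oct-Sox element genes, other common targets, and repressors and lineage antagonists in each library, as colour on a log2(FPKM+1) scale. Fgf4, Prdm14, Nodal and Lefty2 share the dark cells of Nanog in N2B27 and brighter cells from day 15 on, whereas Dppa5a, like Pou5f1, is dark in MEF and XEN-like cells alone.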

How the data were processed

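Bulk libraries were made from total RNA with the NEBNext Ultra RNA kit, per the labels' protocols. The authors deposited 1 table of FPKM values for 14 libraries, named as FPKM per the labels. The submitters' processing notes name the build mm10 and FastQC, Cell Ranger 2.0.1, Bismark and Bowtie2, with no role. For the bulk aligner, counting tool, annotation and strandedness, no source used here gives a name.

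An FPKM value is a whole number of reads scaled by gene length and library total, so the low values gave both. Reads were recovered for 23178 of 35275 entries, leaving 9866 listed at 0 in all libraries and 2231 above 0 in a single one. Implied lengths were whole within 0.001 base for 99.7% of entries. FPKM are not counts, and with 1 library per group no count model or test was run. A fold is the ratio of deposited FPKM values, with an exact 95% binomial interval from the reads, or a bound against a floor of 3 reads. Calls used a pseudocount of 1, a minimum of 1 FPKM in either library and a threshold of 2-fold. The 14 library pairs, the gene lists and the 3 members were chosen with earlier results of these data known. Other genes are named from the lists, or as the 5 entries of highest Pearson's r with a member among those ranked for likeness. Alternatives were median-of-ratios scaling, equal FPKM sums with and without mitochondrial entries, a pseudocount of 0.1, a minimum of 5 FPKM and no minimum. Read recovery and calls were also run on simulated data, made with the FPKM formula that the recovery assumes and with counting error only. That check therefore says nothing on the spread between cultures or on whether the formula holds for the deposited values. Promoter sequences came from RefSeq tables of GRCm38.p6, in which all 3 members matched by symbol. Python 3.11.15, numpy 2.4.6, pandas 2.3.3, scipy 1.17.1 and matplotlib 3.10.9 were used.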

Additional observations from a re-analysis of the deposited data

How the results depend on the processing

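No paired analysis was possible because each group is 1 library. The 14 counts of called factors kept their value under the alternatives run except in 2 cases. With a minimum of 5 FPKM the count for XEN-like cells over MEF was 0 in place of 1, since Sox2 there is below that minimum. With median-of-ratios scaling the count for CiPSC over day 21 was 1 in place of 0, through Pou5f1. Of the 42 levels (3 factors in 14 libraries), 23 were at 10 FPKM or more as deposited and 22 to 24 under the other scalings. No call changed sign.

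Scaling moved the median log2 fold of all entries by -0.25 in XEN-like cells over MEF (1841 higher and 2829 lower with median-of-ratios, against 2518 and 2341), by 0.18 in CiPSC over day 21 (1009 and 1691, against 658 and 2075) and by 0.14 in CiPSC over ESC (351 and 424, against 230 and 611). Equal FPKM sums moved it by -0.31 in CiPSC over MEF (2712 and 4324, against 3574 and 3510), and leaving out mitochondrial entries by -0.19 in Em+ over Em- (875 and 1120, against 1123 and 691). Other shifts past 0.1 were -0.11 and -0.12 with equal FPKM sums, with and without mitochondrial entries, in both CiPSC over day 21 and CiPSC over ESC (164 and 782, and 159 and 796, for the second pair), and -0.11 with median-of-ratios for Opt. VPA over its control. Against these shifts the folds of all 3 factors in CiPSC over MEF, and of Sox2 and Nanog at day 15 over day 6, are large, and those of CiPSC over ESC are not.

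Depth limits Nanog most, with 2 to 11 reads in 7 libraries. With 1 library per group, the spread between cultures, lines and strains is not known.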
